A study of Homo sapiens with 8 samples.

Results

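The set consists of 8 long noncoding RNAs, namely UCA1, MALAT1, NEAT1, GAS5, SNHG1, SNHG12, ZFAS1 and H19, out of 23393 genes in the count table. They were chosen by name as abundant or stress-related noncoding RNAs and small nucleolar RNA (snoRNA) host genes, and the set was selected on the measured difference in UCA1 level between the 2 cell lines. UCA1 is therefore described without a test, and tests were read for the other 7. All 8 were in the table and passed the expression filter, which left 15262 genes. RNA-seq was performed on MDA-MB-231, an established human triple-negative breast cancer line, and on ρ0 cells derived from it, which lack mitochondrial DNA. The ρ0 cells were a single clone (number 27), kept in medium with pyruvate, uridine and ethidium bromide, so that the loss of mitochondrial DNA, the clone and its culture cannot be told apart in any comparison of the lines. The 4 groups were control and arginine-starved (48 h) cells of either line, with 2 libraries in each. The sample labels give the starvation as arginine deiminase, an enzyme that degrades arginine, at 0.3 µg/mL in full medium, whereas the paper describes medium without arginine. Nothing in the labels says that replicates came from separate cultures. The p-values therefore measure only the spread between these libraries, pooled over the 4 groups, which may be technical.

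Small nucleolar RNAs guide the chemical modification of ribosomal RNA and are cut from the introns of host genes. GAS5, SNHG1, SNHG12 and ZFAS1 are hosts whose spliced exons encode no protein. Such exons are commonly degraded by nonsense-mediated decay (NMD) while they are being translated, and slowed translation is known to raise their level. Host genes of this kind often begin transcription at a run of pyrimidines, as ribosomal protein genes do. NEAT1 is the architectural RNA of paraspeckles, nuclear bodies that hold RNA-binding proteins, and MALAT1 accumulates in nuclear speckles, which store splicing factors. UCA1 was first described in bladder cancer and is raised in many carcinomas. H19 is an imprinted, growth-related RNA and the precursor of the microRNA miR-675.

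The libraries held between 25259503 and 31022155 counts. Levels are given as CPM, the counts scaled by TMM to equal library size, with the SD of n = 2 libraries. Genes of the mitochondrial genome were not in the table, so that the absence of mitochondrial DNA was not checked. The biological coefficient of variation between replicates was 25.1% in ρ0 control and between 1.84% and 5.18% in the other 3 groups. A single fit pooled this spread, so that SEs and p-values in parental cells also carry the spread of ρ0 control. In starved parental cells 10060 of 15262 genes had an adjusted p-value under 0.05, and 12042 of 14509 with the parental libraries alone. In starved ρ0 cells 6308 of 15262 passed, and 3127 of 14127 with the ρ0 libraries alone. VIM and CD44, mesenchymal and basal markers of MDA-MB-231, were at 522 CPM or more and 517 CPM or more in every library, and the hormone receptors ESR1 and PGR did not exceed 0.180 and 0.0347 CPM. SPARC, another marker expected in the line, did not exceed 2.54 CPM. FN1 and KRT18, also expected, were at 70.7 CPM or more and 157 CPM or more in every library. ERBB2, the third receptor by which triple-negative lines are defined, and GATA3 were expected to be low. They had between 30.1 and 86.9 CPM and between 4.38 and 18.6 CPM. The epithelial markers CDH1 and EPCAM and the arginine-synthesis enzyme ASS1 averaged no more than 0.0354, 0.470 and 0.202 CPM in the parental groups. In ρ0 control cells they averaged 15.0, 23.1 and 8.93 CPM, and in arginine-starved ρ0 cells 4.54, 18.1 and 22.7 CPM. The part of these differences in the results on ρ0 cells was not tested.

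The promoters of the 4 snoRNA hosts are shown because 3 of these genes rose together under starvation and the fourth did not pass the test. Each sequence holds 250 bases before and 50 bases from the start annotated in RefSeq on GRCh38.p14, read 5′ to 3′ on the strand of the gene. Capitals mark the letters of the motifs searched, each on both strands, which are spelled out after the sequences.
GAS5, chr1:173868996-173869295 (minus strand): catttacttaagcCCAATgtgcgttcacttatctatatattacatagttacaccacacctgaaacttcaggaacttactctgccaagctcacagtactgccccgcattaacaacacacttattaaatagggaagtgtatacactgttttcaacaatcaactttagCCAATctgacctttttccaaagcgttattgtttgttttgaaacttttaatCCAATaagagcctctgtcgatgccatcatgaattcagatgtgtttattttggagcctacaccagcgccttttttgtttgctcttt
SNHG1, chr11:62855836-62856135 (minus strand): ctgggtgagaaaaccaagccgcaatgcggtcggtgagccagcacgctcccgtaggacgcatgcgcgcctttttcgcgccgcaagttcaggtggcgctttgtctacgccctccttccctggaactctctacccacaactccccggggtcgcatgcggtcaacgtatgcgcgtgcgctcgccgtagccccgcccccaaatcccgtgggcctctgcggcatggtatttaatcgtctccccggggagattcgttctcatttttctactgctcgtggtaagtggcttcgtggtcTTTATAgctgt
ZFAS1, chr20:49278392-49278691 (plus strand): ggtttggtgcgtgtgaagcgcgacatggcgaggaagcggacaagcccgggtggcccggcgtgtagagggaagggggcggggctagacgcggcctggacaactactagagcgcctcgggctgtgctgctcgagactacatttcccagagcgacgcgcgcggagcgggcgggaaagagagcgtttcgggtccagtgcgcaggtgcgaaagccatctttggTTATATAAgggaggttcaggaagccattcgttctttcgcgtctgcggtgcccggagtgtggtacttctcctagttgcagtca
SNHG12, chr1:28581824-28582123 (minus strand): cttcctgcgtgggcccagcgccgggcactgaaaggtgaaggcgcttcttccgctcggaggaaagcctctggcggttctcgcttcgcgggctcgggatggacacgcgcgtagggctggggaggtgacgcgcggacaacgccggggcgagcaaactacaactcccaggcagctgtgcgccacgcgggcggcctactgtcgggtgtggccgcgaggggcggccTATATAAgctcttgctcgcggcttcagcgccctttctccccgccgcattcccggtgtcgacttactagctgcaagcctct

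GAS5 held 3 copies of CCAAT, which was found in 34.61% of the 35116 promoters of the table. ZFAS1 and SNHG12 each held TATATAA, found in 2.57% of promoters, in ZFAS1 as overlapping matches on both strands. SNHG1 held TATAAA, found in 11.53%, but on the opposite strand and past the annotated start. None of these 4 windows held TGATGNAA, a form of the element bound by the amino acid stress factor ATF4, which was found in 3.62% of promoters. CACGTG, the E-box bound by MYC, was found in 7.26% and likewise in none of the 4. This says only that those letters are not in these windows. A pyrimidine run at the start (a C followed by 4 or more C or T, beginning within 3 bases of the start) was found in 13.03% of promoters. Around its start, with the run in capitals, ZFAS1 read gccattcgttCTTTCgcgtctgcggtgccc and SNHG12 read gcttcagcgCCCTTTCTCCCCgccgcattc. GAS5 and SNHG1 had no such run at the RefSeq start. ZFAS1 rose and SNHG12 did not pass the test, and these 2 windows shared both the TATATAA and the pyrimidine run. Windows were found for 6 of the 8 RNAs (7 windows, 2 of them of MALAT1). UCA1 and NEAT1 had none in the table used.

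UCA1 was nearly absent from parental cells and abundant in ρ0 cells. Parental control libraries had 0.060 and 0.139 CPM, from 2 and 4 counts. The arginine-starved parental libraries had 0.752 and 0.851 CPM, from 19 and 24 counts. Both starved libraries lay above both controls, at a level that was still low. ρ0 control libraries had 85.9 and 109 CPM, and arginine-starved ρ0 libraries had 33.8 and 35.4 CPM. Within ρ0 cells the order was thus the opposite, with both starved libraries below both controls. The starved level was 8.33 times the control level in parental cells (from 43 against 6 counts). In ρ0 cells the control level was 2.84 times the starved level. ρ0 control cells held 1016 times the parental control level, the difference for which the set was picked. Arginine-starved ρ0 cells held 42.9 times the level of arginine-starved parental cells. These ratios are of the counts of both libraries of a group and were not tested. With 1 library left out, the log2 ratio of starved to control lay between 2.53 and 3.74 in parental cells. In ρ0 cells it lay between -1.66 and -1.31. In bulk RNA, more cells with UCA1 and more UCA1 per cell cannot be told apart. On chromosome 19, the genes that flank UCA1 in GENCODE 29 were not detected beyond single reads, with 0 counts for OR10H1 and 2 counts in all for CYP4F2.

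**Figure D1:**
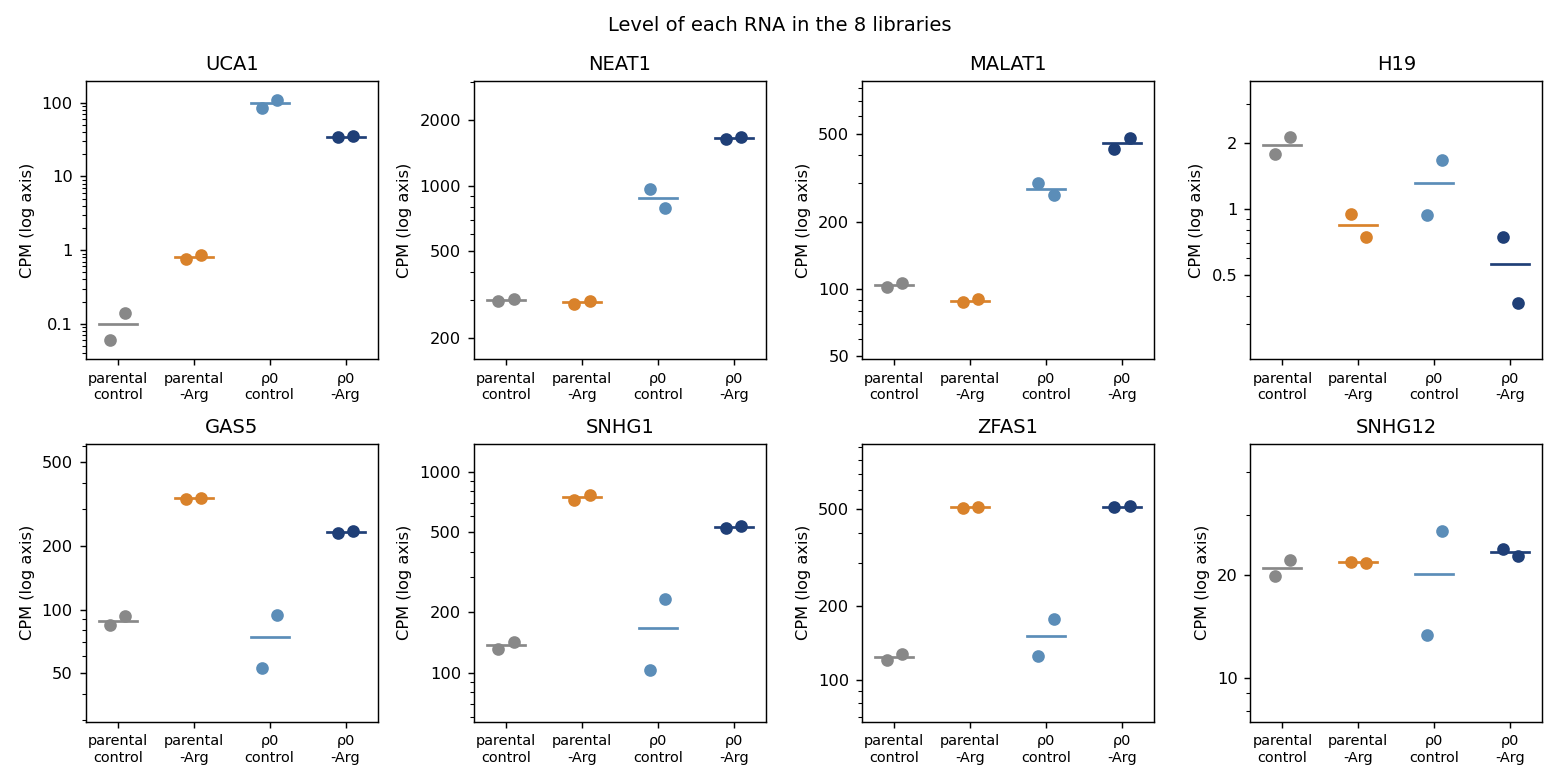
Level of each of the 8 RNAs in every library, as CPM on a log axis with a different range in each panel. Points are libraries and lines are group means (n = 2); -Arg marks the arginine-starved groups. GAS5, SNHG1 and ZFAS1 are higher in both starved groups, NEAT1 and MALAT1 are higher in ρ0 cells, and UCA1 spans from 0.060 to 109 CPM.

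GAS5, SNHG1 and ZFAS1 rose under arginine starvation in both lines, by 3.82- to 5.44-fold in parental cells and by 3.16- to 3.40-fold in ρ0 cells. SNHG12 did not pass the test in either line. A DEG was required to pass an adjusted p-value of 0.05 and to change by more than 1 on the log2 scale. In the parental line 3 of the 7 tested RNAs were DEGs with higher levels, against 12.7% of all tested genes. With 1 DEG at a lower level (H19, below), against 22.1%, 4 of the 7 were DEGs. Without the fold criterion the numbers were again 3 higher and 1 lower, against 30.4% and 35.5% of all tested genes. In ρ0 cells the 3 hosts were again DEGs with higher levels, against 4.22% of all tested genes, and no RNA of the set was a DEG with a lower level, against 8.19%. Groups that do not overlap were the rule in these data, since they were found for 89.2% of tested genes in parental and 67.5% in ρ0 cells.

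SNHG1, the host of several box C/D snoRNAs, had the largest estimate of the 4 in parental cells. There it had 131 and 143 CPM in parental control and 725 and 764 CPM in arginine-starved parental cells. The groups were far apart, with a log2 fold change of 2.44 (SE 0.33, adjusted p = 4.1e-04). The ρ0 control libraries had 103 and 231 CPM, and the arginine-starved ρ0 libraries 523 and 534 CPM. The 2 ρ0 control libraries differed from each other by more than in any other group, and both still lay below both starved libraries. The log2 fold change in ρ0 cells was 1.66 (SE 0.32, adjusted p = 0.0054). It was 1.19 without ρ0 control replicate 1, the lower library, and 2.38 without replicate 2.

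GAS5, named for its accumulation in growth-arrested cells, had 84.2 and 93.0 CPM in parental control and 336 and 340 CPM in arginine-starved parental cells. Its log2 fold change was 1.93 (SE 0.24, adjusted p = 2.6e-04). The ρ0 libraries had 53.0 and 94.8 CPM in control and 232 and 236 CPM under starvation. Replicate 1 of ρ0 control was again the lower, and the groups did not overlap. The log2 fold change was 1.66 (SE 0.23, adjusted p = 0.0015), with values of 1.31 and 2.16 without ρ0 control replicate 1 and 2.

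ZFAS1, transcribed from the opposite strand next to the start of ZNFX1, gave the tightest values of the 3. It had 121 and 127 CPM in parental control and 509 and 513 CPM under starvation, a log2 fold change of 2.04 (SE 0.15, adjusted p = 3.1e-05). In ρ0 cells it had 125 and 177 CPM in control and 509.6 and 517 CPM under starvation, a log2 fold change of 1.77 (SE 0.15, adjusted p = 2.4e-04). The starved levels of the lines were nearly equal, with means of 511 ± 2.56 and 513 ± 5.50 CPM.

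SNHG12 had 19.8 and 22.1 CPM in parental control and 21.9 and 21.7 CPM under starvation. The ρ0 libraries showed 13.4 and 26.9 CPM in control and 23.9 and 22.7 CPM under starvation. In both lines the starved libraries lay between the 2 controls. The log2 fold change was 0.06 in parental cells (95% interval -0.59 to 0.71, adjusted p = 0.87) and 0.21 in ρ0 cells (95% interval -0.44 to 0.86, adjusted p = 0.59). The intervals leave room for a change of less than 2-fold in either direction. Both rest on the spread pooled over all groups, ρ0 control included, and not on the spread of either line alone. The ρ0 value was -0.21 without ρ0 control replicate 1 and 0.82 without replicate 2, and passed the threshold in opposite directions (adjusted p = 0.046 and 1.2e-06), so that its sign rests on which of these libraries is used.

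**Figure D2:**
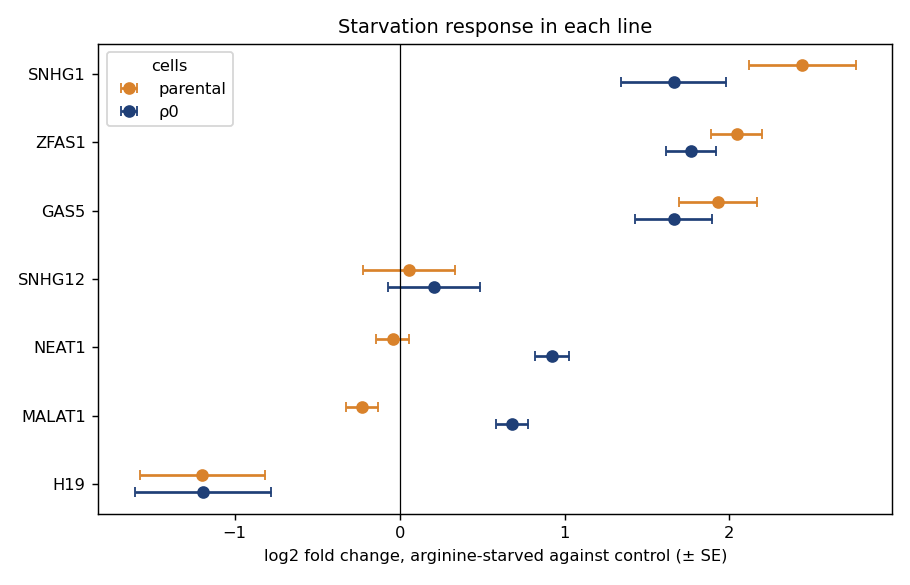
Log2 fold change of the 7 tested RNAs, arginine-starved against control, in parental and ρ0 cells. Points are edgeR estimates and bars are ± 1 SE. SNHG1, ZFAS1 and GAS5 lie between 1.66 and 2.44 in both lines, NEAT1 and MALAT1 lie at 0.92 and 0.68 in ρ0 cells and near 0 in parental cells, and H19 lies at -1.20 and -1.19.

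NEAT1 and MALAT1 rose under starvation in ρ0 cells and did not pass the test in parental cells, and this difference between the lines itself passed the test. NEAT1 had 297 and 303 CPM in parental control and 288 and 294 CPM in arginine-starved parental cells. Its log2 fold change there was -0.04 (SE 0.10, adjusted p = 0.73). In ρ0 cells it had 963 and 794 CPM in control and 1647 and 1686 CPM under starvation, a log2 fold change of 0.92 (SE 0.10, adjusted p = 5.9e-04). The parental groups were within a few percent of each other, whereas both starved ρ0 libraries were well above both controls. MALAT1 had 102 and 106 CPM in parental control and 87.6 and 90.5 CPM under starvation, a log2 fold change of -0.23 (SE 0.10, adjusted p = 0.072). In ρ0 cells it had 301 and 264 CPM in control and 427 and 480 CPM under starvation, a log2 fold change of 0.68 (SE 0.10, adjusted p = 0.0015). MALAT1 was thus lower in both starved parental libraries and higher in both starved ρ0 libraries. With upper quartile scaling or total counts the parental value was -0.35 and -0.39 and passed the threshold, and these scalings moved the median of all genes from -0.07 to -0.19 and -0.23. It also passed at a similar size to the main value with the parental libraries alone (-0.19, adjusted p = 0.0027), with limma-voom group weights (-0.23, adjusted p = 0.0054), with at least 10 counts in every library (-0.26, adjusted p = 0.046) and without either ρ0 control library (adjusted p = 6.1e-04 and 0.0034). Counting these 2 RNAs and setting no fold criterion, 5 of the 7 were significantly higher in starved ρ0 cells, against 19.2% of all tested genes, and none a lower level, against 22.1%.

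The response difference, taken as the log2 fold change in ρ0 cells minus that in parental cells, was 0.97 for NEAT1 (SE 0.14, adjusted p = 0.0025) and 0.91 for MALAT1 (SE 0.14, adjusted p = 0.0026). These were 2 of the 7 RNAs with a higher response in ρ0 cells, against 21.6% of all tested genes, and none had a lower one, against 18.8%. For GAS5, SNHG1 and ZFAS1 the response difference was -0.27, -0.78 and -0.28 and did not pass the test. Their 95% intervals were -1.02 to 0.49, -1.81 to 0.25 and -0.76 to 0.21, which include 0 as well as clearly smaller responses in ρ0 cells. Without ρ0 control replicate 1 the 3 values were -0.62, -1.25 and -0.50. Without ρ0 control replicate 2 the GAS5 value was 0.18, with the opposite sign, and SNHG1 and ZFAS1 had values of -0.10 and -0.03. SNHG12 had a response difference of 0.15 (SE 0.39, adjusted p = 0.80), which was 0.72 without ρ0 control replicate 2. Each of these fits left 1 library in ρ0 control, and more of all tested genes passed in them, so that calls are not counted there.

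Between the lines, NEAT1 and MALAT1 were the 2 RNAs of the 7 that passed the test. In control cells both were DEGs with higher levels in ρ0 cells, against 13.6% of all tested genes, and none was a DEG with a lower level, against 17.3%. NEAT1 was 2.93-fold higher (log2 fold change 1.55, SE 0.10, adjusted p = 1.7e-05) and MALAT1 2.71-fold higher (log2 fold change 1.44, SE 0.10, adjusted p = 1.8e-05). After starvation the same 2 were DEGs with higher levels, against 18.7%, and none was a DEG with a lower level, against 16.8%. NEAT1 was then 5.73-fold higher (log2 fold change 2.52, SE 0.11, adjusted p = 2.2e-06) and MALAT1 5.09-fold higher (log2 fold change 2.35, SE 0.10, adjusted p = 2.2e-06). GAS5 and SNHG1 had estimates of -0.53 (SE 0.23, adjusted p = 0.073) and -0.49 (SE 0.31, adjusted p = 0.19) between starved lines. GAS5 passed with DESeq2 (-0.52, adjusted p = 0.043). With limma-voom group weights both passed, at -0.53 and -0.50 (adjusted p = 1.7e-08 and 2.9e-07). The 2 genes lie on the same strand of chromosome 11, with 52147 bases between them in GENCODE 29. FRMD8, beside NEAT1, was also higher in ρ0 control cells, by a log2 fold change of 0.95. Its response to starvation in ρ0 cells was 0.16 and did not pass the test.

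H19 was low in all groups and fell under starvation in parental cells. It had 1.77 and 2.12 CPM in parental control, from 59 and 61 counts, and 0.950 and 0.744 CPM under starvation, from 24 and 21 counts. Both starved libraries lay below both controls, with a log2 fold change of -1.20 (SE 0.38, adjusted p = 0.025). When any 1 of the 4 parental libraries was left out, H19 no longer passed, with adjusted p-values of up to 0.14. Among ρ0 libraries it had 0.937 and 1.67 CPM in control and 0.744 and 0.373 CPM under starvation, the lowest from 9 counts. The log2 fold change was -1.19 (SE 0.41, adjusted p = 0.053), so that the estimate was like that in parental cells with a p-value on the other side of the threshold. The ρ0 value lay between -1.78 and -0.69 when single libraries were left out, and it passed without ρ0 control replicate 1 (-1.53, adjusted p = 9.4e-04). It also came just past the threshold with upper quartile scaling, total counts or no filter (adjusted p = 0.04998, 0.044 and 0.049). The response difference was 0.00 (SE 0.56, adjusted p = 1.0). MIR675, the microRNA gene within H19, and IGF2, its imprinted neighbor, were listed at 0 counts in all libraries.

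Because levels can be compared between genes only per length, CPM was divided by the total length of the annotated exons in GENCODE 29. SNHG1 was then the highest in parental control at 86.5 ± 5.19 CPM per kb. ZFAS1 (55.8 ± 2.02) and GAS5 (54.9 ± 3.88) followed and did not differ beyond their spread. MALAT1 came next at 15.0 ± 0.438 CPM per kb, then NEAT1 at 13.2 ± 0.173 and SNHG12 at 8.22 ± 0.640. H19 at 0.828 ± 0.105 and UCA1 at 0.0369 ± 0.0207 CPM per kb were the lowest. In arginine-starved ρ0 cells SNHG1 was again highest at 334 ± 4.84 CPM per kb, followed by ZFAS1 at 231 ± 2.47 and GAS5 at 145 ± 2.08. NEAT1 reached 73.2 ± 1.19 and MALAT1 65.1 ± 5.40 CPM per kb, a gap of little more than their spread. UCA1 at 12.9 ± 0.425 CPM per kb now stood above SNHG12 at 9.14 ± 0.323, and H19 was the lowest at 0.238 ± 0.112. The isoforms used in these cells were not known, so that the order between genes is uncertain. This applies most to NEAT1, whose length of 22767 bases was the longest. If shorter isoforms prevailed, its level per kb would be higher and its place in the order could change.

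Other noncoding snoRNA host genes were listed for comparison, and 16 of the 21 were in the table and tested. Under starvation 7 of the 16 rose in parental cells and 4 fell, against 30.4% and 35.5% of all tested genes, with a median log2 fold change of 0.16 against -0.07 over all tested genes. SNHG15, SNHG17 and SNHG8 rose most, by log2 fold changes of 2.66, 2.08 and 2.02, and SNHG6 fell by 0.96. In ρ0 cells 6 rose and 1 fell, against 19.2% and 22.1% of all tested genes, with a median of 0.31 against -0.02. The 3 largest rises were those of EPB41L4A-AS1, SNHG15 and SNHG17, at 1.64, 1.42 and 1.12, and SNHG6 fell by 0.36. The number that passed in ρ0 cells depended on which library was left out, as it did over all tested genes. This also holds for the lists below. SNHG8 responded less in ρ0 cells than in parental cells (response difference -1.41, adjusted p = 0.0016). The hosts thus moved in both directions. By size of the parental estimate SNHG1, ZFAS1 and GAS5 stood among the 6 highest of the 20 hosts, and SNHG12 stood among those near 0.

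**Figure D3:**
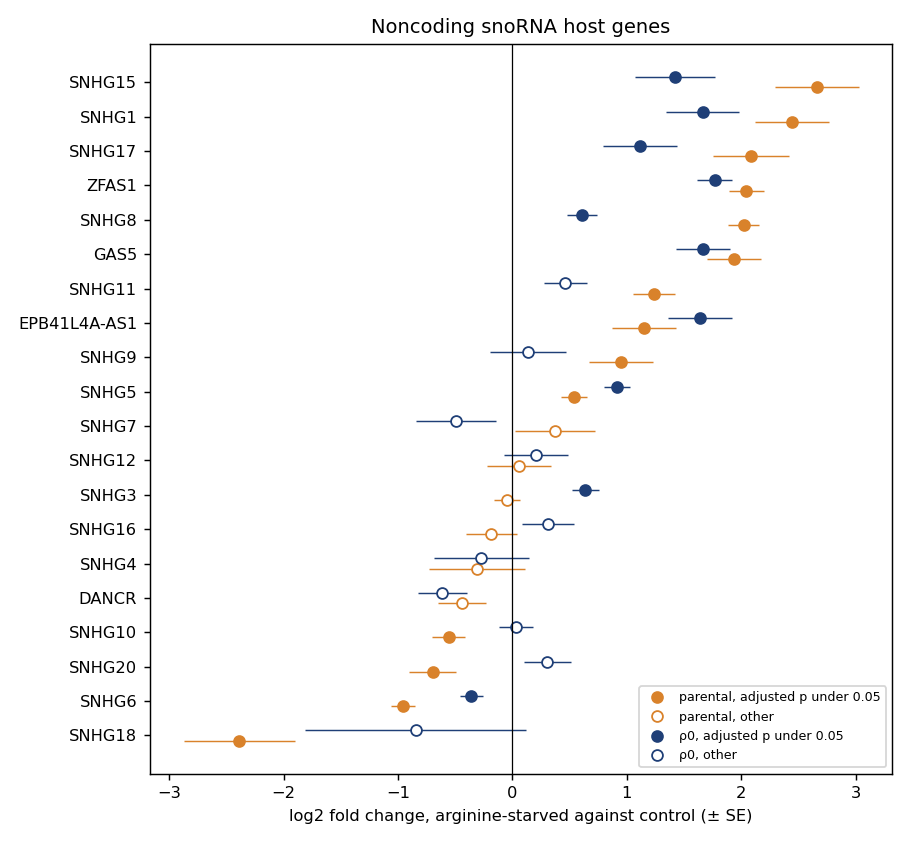
Log2 fold change under arginine starvation (± SE) of the 4 snoRNA hosts of the set and the 16 other noncoding hosts tested, in parental and ρ0 cells. Filled points have an adjusted p-value under 0.05. The parental values run from SNHG18, below -2, to SNHG15 at 2.66.

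Of 27 snoRNAs that lie inside the 8 RNAs, 26 were in the table and 12 were tested. In parental cells 3 rose and none fell, against 30.4% and 35.5% of all tested genes, with a median log2 fold change of 0.68. The share that rose was no larger than over all genes, and the number that passed depended on the libraries used. The 3 that rose were SNORD44, SNORD75 and SNORD77, all within GAS5, with log2 fold changes of 1.12, 2.47 and 1.88. In ρ0 cells SNORD44 alone passed, with a log2 fold change of 0.67, and this number again depended on the libraries used. The counting was not stated, so that reads of a snoRNA cannot be told from reads of the unspliced host, and snoRNAs are shorter than the fragments of standard libraries.

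Of 19 genes for proteins that assemble snoRNAs into particles, 14 rose and 3 fell in parental cells, against 30.4% and 35.5% of all tested genes, with a median log2 fold change of 0.84. NOP58, a core protein of box C/D particles, rose by 1.80, DKC1, the pseudouridine synthase of H/ACA particles, by 1.56, and NUFIP1, an assembly factor, by 1.51. NHP2 and PIH1D1 had values of -1.06 and -0.67, both past the threshold. In ρ0 cells 7 rose and 1 fell, against 19.2% and 22.1%, with a median of 0.26, and these numbers depended on the libraries used. NOP58 rose there by 0.89, NAF1 by 0.83 and ZNHIT6 by 0.77, and RUVBL2 fell by 0.81. Of 42 protein-coding snoRNA hosts, 18 rose and 7 fell in parental cells, against 30.4% and 35.5% of all tested genes. In ρ0 cells 8 rose and 7 fell, near the 19.2% and 22.1% of all tested genes. The numbers in both lines depended on the libraries used. NOP56 and WDR43, both ribosome biogenesis genes, rose in parental cells by 1.32 and 1.22, and the ribosomal protein gene RPL4 fell by 0.93.

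Of 22 genes for factors of NMD, the pathway known to degrade the exons of snoRNA hosts, 15 rose and none fell in parental cells, against 30.4% and 35.5% of all tested genes, with a median log2 fold change of 0.55. UPF3B rose by 1.45, the kinase SMG1 by 1.41 and the helicase UPF1 by 1.24. In ρ0 cells 8 rose and 2 fell, against 19.2% and 22.1%, with a median of 0.23, and these numbers depended on the libraries used. UPF3B rose by 0.94, DHX34 by 0.77 and PNRC2 by 0.76, while RBM8A fell by 0.95 and RNPS1 by 0.75. The response was lower in ρ0 cells for 9 of the 22 and higher for none, against 18.8% and 21.6% of all tested genes. The median response difference was -0.45. How far these response numbers depend on the libraries used was not tested. RNA levels of these factors do not measure NMD activity. ATF4, which is translated under amino acid lack and whose mRNA is itself an NMD target, averaged 161 CPM in parental control and 540 CPM in starved parental cells, and 172 and 320 CPM in the ρ0 groups.

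The protein genes of the bodies in which NEAT1 and MALAT1 reside moved in both directions. Of 21 paraspeckle protein genes, 3 rose and 8 fell in starved ρ0 cells, where NEAT1 rose, against 19.2% and 22.1% of all tested genes, with a median log2 fold change of -0.06. SFPQ and NONO, which bind NEAT1 and are needed for the body, fell by 0.84 and 0.76, and HNRNPH3 rose by 0.81. In parental cells 6 rose and 5 fell, against 30.4% and 35.5%, with HNRNPH3 at 1.61 and HNRNPA1 at -0.92. The number that passed depended on the libraries used in both lines. Of 25 nuclear speckle genes, 7 rose and 7 fell in ρ0 cells, against 19.2% and 22.1% of all tested genes. In parental cells 9 rose and 4 fell, against 30.4% and 35.5%, and the numbers in both lines depended on the libraries used. The splicing factor genes SRSF7 and SRSF3 fell in ρ0 cells by 1.11 and 0.78, and the kinase genes CLK3 and CLK1 rose by 0.87 and 0.85. In parental cells SRSF4 and SRSF5 fell by 1.38 and 1.24, and SRSF3 rose by 0.84. In control cells 13 of the 25 were lower in ρ0 than in parental cells, against 31.8% of all tested genes, and none was higher, against 30.5%, whereas MALAT1 was higher.

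Neighboring genes were examined because the counts are not stated to use strand, in which case reads of overlapping genes on opposite strands cannot be told apart. SNHG1 faces SLC3A2, the heavy chain of amino acid transporters, on the opposite strand with 187 bases between the genes in GENCODE 29. The nearest RefSeq starts are 224 bases apart, so that the SNHG1 promoter printed above shares 277 bases with 1 window of SLC3A2. Other SLC3A2 windows have starts at 62880896 and 62881699 on chromosome 11. The window of the start at 62881699 held TGATGNAA, on the opposite strand and past the start. Which of these starts was used in these cells was not tested. SLC3A2 had 134.7 and 143.8 CPM in parental control and 1426 and 1448 CPM under starvation, a log2 change of 3.37 (SE 0.25, adjusted p = 2.8e-05). In ρ0 cells it had 303.5 and 535.5 CPM in control and 1158 CPM in both starved libraries, a log2 fold change of 1.46 (SE 0.23, adjusted p = 0.0023). Both genes of the pair rose in both lines, and both were lower in ρ0 control replicate 1 than in replicate 2. The response difference of SLC3A2 was -1.90 (adjusted p = 0.0039), whereas that of SNHG1 did not pass the test. WDR74, on the other side of SNHG1, had log2 fold changes of 0.19 and -0.07 in parental and ρ0 cells and did not pass.

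ZNFX1, which overlaps ZFAS1 on the opposite strand, rose by 0.46 on the log2 scale in parental cells (adjusted p = 0.0027) and had a value of 0.18 in ρ0 cells that did not pass. ZNFX1 was higher in ρ0 control than in parental control by 1.30, whereas ZFAS1 had a value of 0.28 that did not pass. ZBTB37, which overlaps GAS5, had values of 0.52 (not passed) in parental and 0.997 in ρ0 cells (adjusted p = 0.028), from 8.99 CPM or less in every library. The antisense gene GAS5-AS1 had 58 counts in all. TRNAU1AP, which overlaps SNHG12, rose by 0.68 in parental cells (adjusted p = 0.0017), and TAF12, on its other side, by 2.31 in parental and 0.78 in ρ0 cells. ZNFX1 and ZBTB37, as well as ZFAS1 and GAS5, were higher in both starved libraries than in both controls of either line, with smaller estimates. Such an order is no mark of a pair. Groups that do not overlap, in either direction, were found for 89.2% of tested genes in parental and 67.5% in ρ0 cells. TRNAU1AP rose in parental cells, where SNHG12 did not pass the test. The part of shared reads in these values was not tested. MRPL23-AS1, the nearest gene to H19, fell by 0.82 in parental cells and rose by 2.24 in ρ0 cells, and was lower in ρ0 control than in parental control by a log2 fold change of -3.52.

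**Figure D4:**
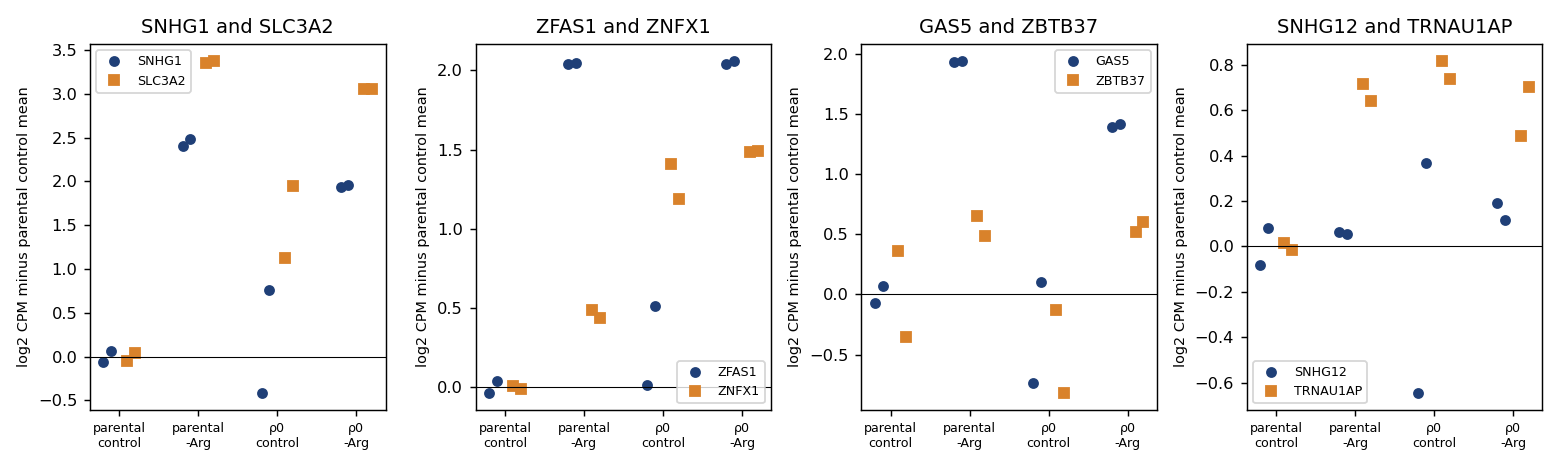
Log2 CPM of 4 snoRNA hosts (circles) and a neighboring or overlapping gene on the opposite strand (squares) in each library, minus the mean of the parental control libraries, with a different range in each panel. SNHG1 and SLC3A2 are higher in all starved libraries than in the control libraries of the same line. So are ZFAS1 with ZNFX1 and GAS5 with ZBTB37, where the overlapping gene changes less than the host. Groups that do not overlap, in either direction, were found for 89.2% of tested genes in parental and 67.5% in ρ0 cells. SNHG12 lies between its controls under starvation, whereas TRNAU1AP is higher in starved parental cells.

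The genes closest in pattern to each RNA were found from the root mean square (RMS) difference of log2 CPM, centred over the 8 libraries, among 9951 genes with a mean of at least 10 CPM. This is a description over 8 libraries in 4 groups, in which a group mean counts for much. MALAT1 was closest to SOX13 (RMS difference 0.094), ERAP1 (0.12) and NEAT1 (0.14), and NEAT1 to SOX13 (0.13), ITGA3 (0.14) and MALAT1 (0.14). These 2 RNAs were thus among each other's 3 nearest genes. SNHG1 was closest to SNHG15 (0.16), ZC3H8 (0.20) and SNHG17 (0.23), so that 2 of its 3 nearest genes were also snoRNA hosts. GAS5 was closest to MKX (0.090), ZC3H8 (0.13) and RSL24D1 (0.16). ZFAS1 was closest to PVR (0.15), the glutamine transporter gene SLC1A5 (0.17) and the initiation factor gene EIF1 (0.20). SNHG12 was closest to UBE2D4 (0.11), CYB5D1 (0.12) and LRFN4 (0.13), and H19 to FSCN1 (0.28), COX5A (0.30) and HIRIP3 (0.30). UCA1 had no gene near it on this scale, with KRT7 (0.73), LSR (0.84) and HSPB1 (1.06) the closest over a UCA1 range of 10.5. KRT7, a keratin, and LSR, a tight junction protein, are epithelial genes. Most of the UCA1 range is the difference between the lines for which the set was picked. Genes near UCA1 on this scale are therefore genes with higher levels in ρ0 cells, and no likeness beyond that is shown.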

How the data were processed

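RNA-seq of 8 libraries was analysed, 2 each of control and arginine-starved parental MDA-MB-231 and ρ0 cells, grouped by their titles. The authors deposited unnormalized whole-number read counts by gene symbol. The submitters' processing notes name Bowtie, Partek and hg19, and the annotation and use of strand are not given in the sources used here. Total counts were between 25259503 and 31022155. The tests were edgeR's (version 4.0.16 under R 4.3.3: filterByExpr, TMM, quasi-likelihood test). All 8 libraries entered one fit with 1 mean per group (4 residual degrees of freedom, prior 3.4), and p-values were adjusted by Benjamini-Hochberg over 15262 genes. DEGs passed an adjusted p-value of 0.05 and changed by more than 1 on the log2 scale, a size not asked of the response difference (interaction). SE was computed as the absolute log2 change over the root of the F statistic, except for the H19 response difference, where F was near 0 and the SEs of both lines were combined.

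The 8 RNAs and the gene lists were chosen with earlier results of these data known. Named genes are the 8 RNAs, their neighbors and overlapping genes, per list and line up to 3 significant rises and 3 falls with a mean of at least 10 CPM, and the 3 genes nearest in pattern. SNORD44, SNORD75 and SNORD77 (below 10 CPM), SNHG18, MIR675 and the SNHG8 response difference were named after their values were seen, as was ATF4. Neighbors and exon lengths are from GENCODE 29 on GRCh38 and promoters from RefSeq on GRCh38.p14, matched by symbol. Not every neighbor is reported here. Alternatives used DESeq2 1.42.0, limma 3.58.1, other scalings and filters, fits to 1 line, a replicate block and each library left out. Scripts were tested on simulated counts with the same spread in every group and changes only in starved parental cells. The unequal spread of the real groups was not simulated.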

Additional observations from a re-analysis of the deposited data

Results flagged for a closer look

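MALAT1 and NEAT1 responded differently to arginine starvation in the 2 lines, with a response difference (ρ0 minus parental, log2) of 0.91 for MALAT1 and 0.97 for NEAT1, both tested by the interaction in edgeR's quasi-likelihood fit (adjusted p = 0.0026 and 0.0025). Both starved ρ0 libraries were above both ρ0 controls for each RNA, and both starved parental libraries were below both parental controls. Groups that do not overlap, in either direction, were found for 67.5% of tested genes in ρ0 and 89.2% in parental cells. In the main fit the parental log2 fold changes of NEAT1 (-0.04) and MALAT1 (-0.23) did not pass the test. UCA1 moved in opposite directions, with a log2 ratio of starved to control of 3.01 in parental cells and -1.50 in ρ0 cells. For UCA1 the difference between the lines was not tested, and the parental controls held 2 and 4 counts.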

How the results depend on the processing

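Of the member fold changes, 247 kept their direction and side of the threshold when 1 library was left out, 17 came past it, 4 fell short of it and 12 changed sign. In the other settings 305 kept both, 12 came past it and 7 changed sign. With 1 library left out, the lone library of its group was assumed to vary like the others. With 1 library left out, the number of RNAs called in starved ρ0 cells depended on the library, as did the number over all tested genes. The number of RNAs was 3 in the main fit and 5 with no fold threshold. It was 4 with upper quartile scaling, total counts or no filter, where H19 was added as a lower call. The number with a response difference was 2 in the main fit and likewise depended on the library left out. The number called in parental cells was 4, and 3 without any 1 parental library or with at least 10 counts in every library, where H19 was lost or not tested. The comparisons of the lines kept 2 RNAs as DEGs in all settings. Without the fold criterion more RNAs passed in some settings, among them GAS5 and SNHG1 between starved lines.

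For SNHG12 the parental log2 fold change was -0.061 with upper quartile scaling and -0.10 with total counts, and between -0.018 and 0.13 with 1 library left out. With 1 library left out, its ρ0 value lay between -0.21 and 0.82, its response difference between -0.27 and 0.72 and its difference between control lines between -0.59 and 0.37. In the same way the GAS5 response difference lay between -0.62 and 0.18, and the differences between control lines between -0.69 and 0.10 for GAS5 and -0.36 and 0.76 for SNHG1. The H19 response difference, near 0, was -0.0010 with DESeq2's size factors, -0.013 with DESeq2, -0.015 with limma-voom, -0.011 with group weights and between -0.62 and 0.47 with 1 library left out. ZFAS1 between starved lines was -0.0069 with total counts. The cause of these moves was not tested. H19 rests on 9 to 61 counts per library, and UCA1 in parental control on 6 counts in all.

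Replicate numbers did not pair the libraries (correlations of deviations between -0.042 and 0.023). With a replicate block the number of RNAs called was again 4 in parental cells, 3 in ρ0 cells and 2 for the response difference, and all-gene calls at an adjusted p-value under 0.05 went from 10060 to 9896 and from 6308 to 5915.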

Other observations

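Other long noncoding RNAs also moved under arginine starvation. Of 44 listed, 33 were tested, of which 14 rose and 10 fell in parental cells, against 30.4% and 35.5% of all tested genes (median log2 fold change 0.03). In ρ0 cells 13 rose and 4 fell, against 19.2% and 22.1% (median 0.35). The number that passed in ρ0 cells depended on the library left out, as it did over all tested genes. MIR22HG, the host of miR-22, had 7.91 and 8.34 CPM in parental control and 35.7 and 32.6 CPM in arginine-starved parental cells (log2 fold change 2.07). MIR503HG went the other way, from 36.7 and 41.4 CPM to 9.11 and 8.58 CPM (log2 fold change -2.14). MIR17HG, the host of the miR-17-92 cluster, rose most in ρ0 cells, from 3.57 and 5.24 CPM to 12.8 and 12.2 CPM. GABPB1-AS1 rose in both lines, with log2 fold changes of 1.37 and 1.16, and LINC01116 fell in both, with -0.77 and -0.81.

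Of 17 genes of the H19 locus and other imprinted genes, 10 were tested, of which 3 rose and 5 fell in parental cells, against 30.4% and 35.5% of all tested genes. In ρ0 cells 3 rose and 1 fell, against 19.2% and 22.1%, and these numbers depended on the libraries used. PHLDA2, a growth-restricting gene, rose in both lines, with log2 fold changes of 1.89 and 0.62. CDKN1C, a cyclin-dependent kinase inhibitor, had 23.2 and 23.8 CPM in parental control and 15.7 and 14.1 CPM under starvation. In ρ0 cells it had 6.73 and 5.24 CPM in control and 13.1 and 12.1 CPM under starvation, so that it fell in one line and rose in the other (response difference 1.73, adjusted p = 0.0011). PEG10 fell in both lines, with log2 fold changes of -0.72 and -1.71.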
